A study of Mus musculus with 6 samples.

Results

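The Kruppel-like factor (Klf) genes are described here in mouse kidney glomeruli, the capillary filters of the kidney, from RNA sequencing of 6 samples. The 8 genes were chosen by name, with earlier results of these data known, for roles described in glomerular and tubular cells: Klf2 and Klf4, which respond to blood flow in endothelium, Klf6 and Klf15 of podocytes, Klf5 of injured epithelium, the glucocorticoid-induced Klf9, the TGF-beta-induced Klf10, and Klf13. They are 8 of 57132 gene rows, and all 8 had enough reads to be tested. All 6 samples carried floxed Setdb2 alleles (Setdb2fl/fl) and the label DKD, for diabetic kidney disease. In 3 samples no Cre recombinase was present (Cre-/Setdb2fl/fl, called Cre_negative below) and in 3 it was (Cre+/Setdb2fl/fl, called Cre_positive). The design text places the question in podocytes, the epithelial cells that wrap the glomerular capillaries, and asks what the histone methyltransferase SETDB2 does there in this disease. The sources used here give neither the promoter that drives Cre nor the diabetes model, strain, age or sex. No non-diabetic sample was analysed here, so every difference below is between 2 diabetic genotypes.

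Kruppel-like factors are transcription factors that bind GC-rich and CACCC sequences in promoters through zinc fingers at the end of the protein. Members differ in the part before the fingers, which recruits coactivators or corepressors, so that some mostly activate and others mostly repress their targets. In the glomerulus, KLF2 keeps endothelium quiescent under laminar flow, KLF4, KLF6 and KLF15 are known to protect podocytes, and several family members are induced within minutes to hours by growth factors, steroid hormones or cell stress.

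The libraries held 53571438 to 58807042 counts, and the 8 genes had between 1124 (Klf5) and 47565 (Klf9) counts summed over the 6 libraries. Levels are given as CPM, counts per 1000000 counted reads scaled by library normalization factors, and a gene is said to rise, fall or change where its adjusted p in edgeR's quasi-likelihood test, corrected over all 19927 genes tested, was under 0.05. Setdb2 itself had 8.37 ± 1.62 CPM without Cre and 7.70 ± 0.371 CPM with it (SD, n = 3), with an adjusted p of 0.738, so these counts give no check of the genotype labels. Podocyte markers were present (summed over 10 markers, 604 to 689 CPM in Cre_negative and 822 to 916 CPM in Cre_positive). Markers of proximal tubule, the segment next to the glomerulus, were present too, at 8171 to 9879 and 12243 to 13438 CPM over 10 markers, so the isolates also held tubule RNA. Xist, expressed from the inactive X chromosome of female cells, had 24 counts in Cre_positive replicate 2 and at least 36474 in each of the other libraries; that library was therefore also left out as a check. By its Xist counts, Cre_positive replicate 2 was not a technical repeat of its Cre_positive companions. Whether each of the other replicates is a separate mouse is not in the labels. The p-values here reflect only the variation among these 6 samples, which may be technical in part.

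Of the 8 Kruppel-like factor genes, Klf2 rose, Klf10 fell and 6 did not pass the test; of all genes tested, 3.73% rose and 3.82% fell. Klf2 was 1.84-fold higher in Cre_positive glomeruli (95% confidence interval 1.4 to 2.44) and Klf10 was 1.84-fold lower (1.5 to 2.26). Klf15 lay 1.57-fold higher (1.17 to 2.09) with an adjusted p of 0.0763, and Klf6 1.29-fold lower (1.05 to 1.57) with an adjusted p of 0.130. Klf4, Klf5, Klf9 and Klf13 had intervals that spanned no change. In either direction 7.55% of all genes passed, and 29.7% had no overlap between the genotypes, which held for 3 of the 8 genes here (Klf2, Klf10 and Klf15). The median log2 fold change of the 8 was -0.07, against -0.00089 over all genes. With calls in opposite directions and a median near 0, the 8 genes did not move as a block.

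**Figure D1:**
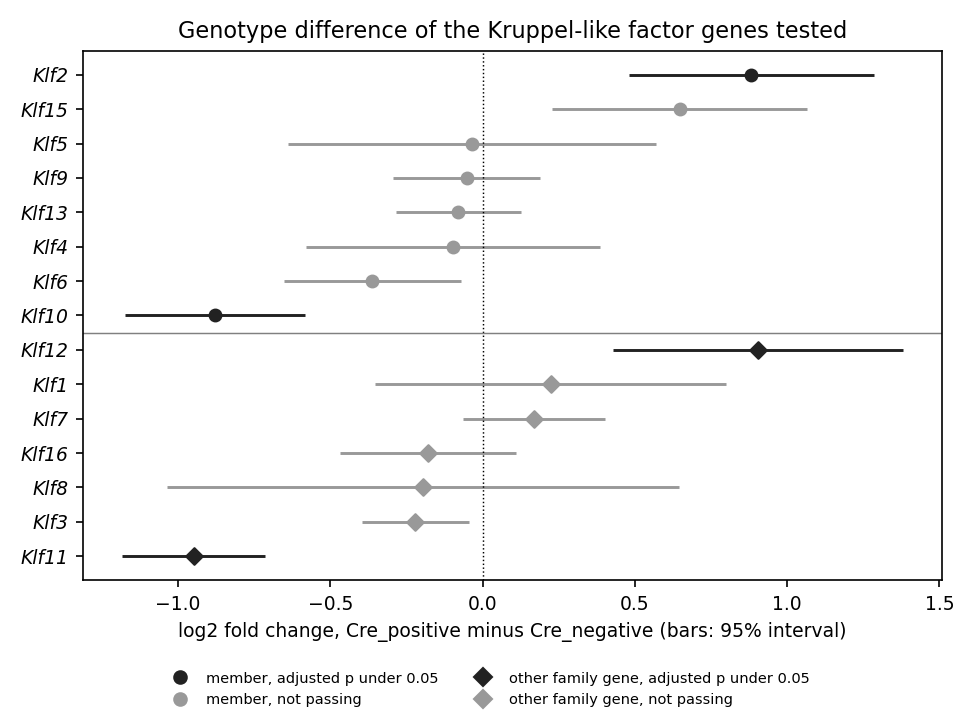
Log2 fold change (Cre_positive minus Cre_negative, horizontal axis) with its 95% confidence interval for the 8 chosen genes (circles, above the line) and the 7 other Kruppel-like factor genes tested (diamonds). Black marks an adjusted p under 0.05: Klf2 and Klf12 on the right, Klf10 and Klf11 on the left.

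Levels of different genes were compared per kilobase of exon, since longer transcripts give more reads. Klf9 and Klf15 were the most abundant of the 8. In Cre_negative libraries Klf9 stood at 26.5 to 34.6 CPM per kilobase, above Klf15 at 14.3 to 23.9. Klf15 overlapped Klf2 at 9.14 to 15.2, Klf2 overlapped Klf6 at 10.5 to 13.7, and Klf6 overlapped Klf10 at 9.89 to 11.3, so that the order of these neighbours was not set beyond their spread. Klf13 (4.74 to 5.68) and Klf4 (3.74 to 6.23) overlapped each other and lay below Klf10, and Klf5 was lowest at 0.541 to 0.836. In Cre_positive libraries Klf15 (28.7 to 33.4) overlapped Klf9 (26.4 to 30.6), Klf2 (23.2 to 24.2) stood clear of Klf6 (8.85 to 11.2), and Klf10 (4.95 to 6.999) stood just above Klf13 (4.68 to 4.89). Klf2 per kilobase was therefore near Klf6 and Klf10 in Cre_negative glomeruli and well above both in Cre_positive ones.

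**Figure D2:**
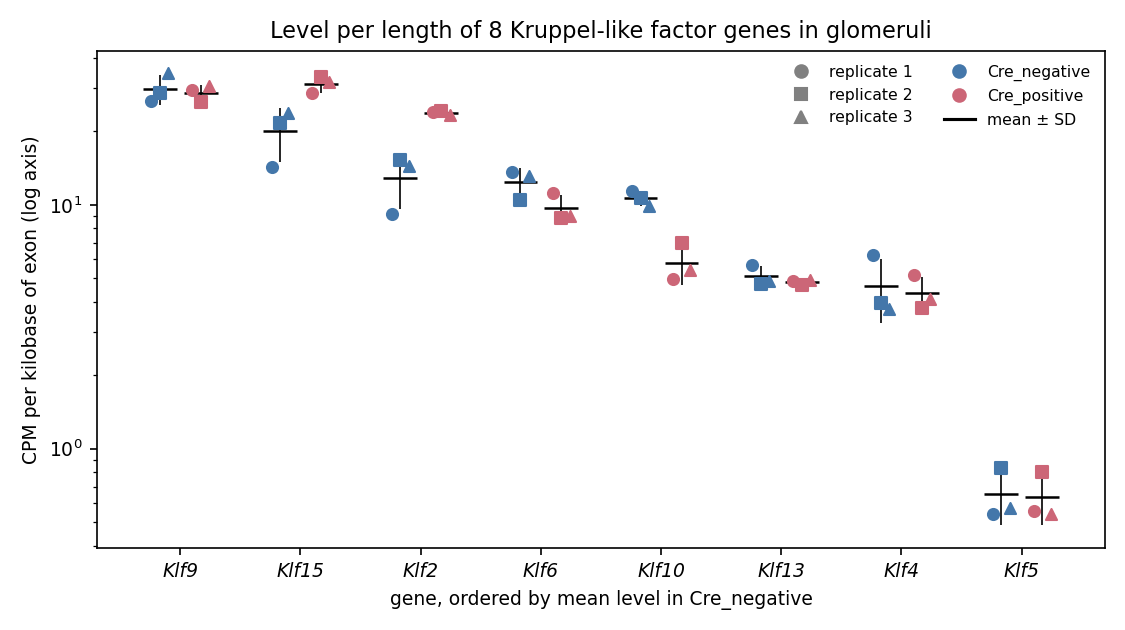
CPM per kilobase of exon (vertical log axis) of the 8 genes in each library, with marker shapes for replicates 1 to 3, blue for Cre_negative and red for Cre_positive, and black lines for the mean ± SD (n = 3). Klf2 and Klf15 are higher and Klf10 lower in red than in blue with no overlap, and Klf5 is the least abundant in both genotypes.

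Klf2 (ENSMUSG00000055148, chromosome 8) is the transcription factor by which endothelial cells read laminar shear stress; it induces nitric oxide synthase and thrombomodulin and restrains inflammation. Its level was 16.9, 28.1 and 26.5 CPM in replicates 1, 2 and 3 without Cre and 44.2, 44.7 and 42.9 CPM in those with Cre. The 3 levels with Cre lay close together and above every level without it (43.9 ± 0.906 CPM, SD, n = 3), while Cre_negative replicate 1 lay below its 2 companions (23.8 ± 6.08 CPM). Klf2 thus rose by 0.88 on the log2 scale (SE 0.17, adjusted p = 0.0229). Without Cre_negative replicate 1 it was 0.69, and the adjusted p 0.00359. Leaving out Cre_positive replicate 1, 2 or 3 ended the call (adjusted p = 0.0762, 0.0872 and 0.0829) with a log2 fold change of 0.87 to 0.90. In glomeruli as in any bulk sample, a higher level from more cells of a type and a higher level per cell cannot be told apart. Endothelial markers also rose, 9 of 10 with a median of 0.62, and their summed level was 498 to 555 CPM in Cre_negative and 775 to 829 CPM in Cre_positive libraries; none was at 0. Set against the mean log2 CPM of these 10 markers in the same library, Klf2 stood at -1.50, -0.91 and -1.02 in Cre_negative and at -0.75, -0.85 and -0.90 in Cre_positive libraries. On that scale the genotypes did not overlap but nearly met (Cre_negative replicate 2 and Cre_positive replicate 3), and the part of endothelial abundance in the rise of Klf2 was not tested further. Some markers of other cell types were higher with Cre as well. Of 10 distal tubule and collecting duct markers 6 rose (3 without Cre_negative replicate 2 or Cre_positive replicate 1 or 3) and none fell. Their summed levels were 6246 to 7602 CPM without Cre and 9925 to 10495 CPM with it. Of 10 mesangial markers 3 rose (2 without Cre_negative replicate 2 or any 1 Cre_positive library) and none fell, from 405 to 510 CPM up to 564 to 597 CPM. Within Cre_negative, replicate 1 had the lowest Klf2. It also had the lowest endothelial (498 CPM), distal tubule and collecting duct (6246 CPM) and proximal tubule (8171 CPM) sums of that genotype. Its mesangial (510 CPM) and podocyte (689 CPM) sums were the highest of that genotype. None of these markers was at 0, and their part in the rise was not tested.

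The window before the start of Klf2 is shown because the gene changed and because flow signalling reaches it through MEF2 factors. The sequence, from RefSeq on GRCm38.p6, covers 250 bases before the transcription start and 10 after it (chr8:72318812-72319071, plus strand), 5′ to 3′, with the core of a MEF2 site (TAAATTTA, a pattern chosen after the sequence was seen) and a CACCC box (here as its complement GGGTG) in capitals.
Klf2: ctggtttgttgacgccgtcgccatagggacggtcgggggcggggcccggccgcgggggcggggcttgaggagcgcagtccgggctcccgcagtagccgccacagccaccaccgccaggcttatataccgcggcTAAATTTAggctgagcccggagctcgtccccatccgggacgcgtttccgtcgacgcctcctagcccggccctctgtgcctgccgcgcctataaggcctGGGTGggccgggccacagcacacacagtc
The MEF2 core began 117 bases before the start. Searched on both strands in windows of 300 bases (250 before to 50 after the start), these letters occurred in 179 of 32851 RefSeq promoters (0.545%), and among the 6 members with a promoter in that table they occurred in Klf2 alone. The letters came from the Klf2 sequence itself and no other form of the MEF2 site was searched, so other members may hold such sites. CACCC occurred in 57.5% of all promoters. A match to letters is a description of the sequence and does not show that a factor was bound.

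Klf4 (ENSMUSG00000003032, chromosome 4), the other flow-induced member of endothelium and also a podocyte factor, had 19.0, 12.1 and 11.4 CPM without Cre and 15.7, 11.6 and 12.5 CPM with it. The genotypes overlapped, and replicate 1 was the highest of each. It differed by -0.10 on the log2 scale (SE 0.21, interval -0.58 to 0.39), which leaves room for 0.669 to 1.31 times the level without Cre. Its sign turned without Cre_negative replicate 1 (0.17). Klf2 and Klf4, which are induced by the same flow pathway, thus did not show the same values: Klf2 passed the test upward and the interval of Klf4 spanned 0.

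Genes of the pathway that carries flow and junction signals to Klf2 and Klf4 were mostly not past the threshold. Of 12 such genes, none rose, 2 fell and 10 did not pass (median -0.07); without Cre_positive replicate 3 none passed. Piezo1, the mechanosensitive cation channel, fell from 199 ± 16.99 to 130 ± 19.4 CPM (log2 fold change -0.62, SE 0.11, adjusted p = 0.0156). Ccm2, a scaffold of the cerebral cavernous malformation complex that holds back the kinase MEKK3 and thereby Klf2 and Klf4, fell from 26.3 ± 2.29 to 20.3 ± 0.602 CPM (log2 fold change -0.38, SE 0.096, adjusted p = 0.0490). The call of Piezo1 ended when Cre_positive replicate 1 or 3 was left out (adjusted p at most 0.0796), and that of Ccm2 without any library other than Cre_negative replicate 3 (up to 0.174). Ccm2 also failed with all libraries without robust estimation in edgeR (robust=FALSE, 0.0510), with no filter on low counts (0.0542) and with the replicate number as a term in the fit, called the replicate block (0.0640). The kinases Map3k3 (log2 fold change -0.08), Map2k5 (0.11) and Mapk7 (0.15) and the factor Mef2c (0.22) did not pass.

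Endothelial genes known to follow KLF2 or KLF4 include genes they induce and genes they repress. Of 17, none rose, 1 fell and 16 did not pass, shares near those of all genes; 13 lay above 0, with a median of 0.17 (0.09 without Cre_negative replicate 1). With DESeq2, or without Cre_negative replicate 2, 1 rose. Edn1 (endothelin, -0.80) and Vcam1 (a leukocyte adhesion molecule, -1.53), which KLF2 is known to repress, did not pass. Nos3, the endothelial nitric oxide synthase, had 19.3, 22.9 and 15.0 CPM without Cre and 20.4, 19.7 and 20.4 CPM with it (log2 fold change 0.08, SE 0.15). Thbd, the anticoagulant receptor thrombomodulin, stood at a log2 fold change of 0.02 (SE 0.11). The intervals of both genes spanned 0, beside the 0.88 of Klf2. The gene that fell was Adamts4, a matrix protease, from 5.64 ± 0.546 to 2.75 ± 0.353 CPM (log2 fold change -1.04, SE 0.20, adjusted p = 0.0180); its call ended without Cre_negative replicate 2 or any 1 Cre_positive library (up to 0.0752).

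Klf15 (ENSMUSG00000030087, chromosome 6) is a podocyte and tubular factor, induced by glucocorticoids and retinoic acid, that supports podocyte differentiation and switches on amino acid breakdown. Its level was 40.0, 60.5 and 66.7 CPM in Cre_negative replicates 1, 2 and 3 and 79.99, 93.2 and 88.6 CPM in the Cre_positive ones. The genotypes did not overlap, and Cre_negative replicate 1 was again the lowest library. A log2 difference of 0.65 (SE 0.18, interval 0.23 to 1.07) did not pass (adjusted p = 0.0763). It passed with DESeq2 (0.00245), with limma voom (0.0362), and without Cre_negative replicate 1 (0.0264, log2 fold change 0.46) or 3 (0.0361, log2 fold change 0.80). Leaving out any other library gave adjusted p-values of 0.135 to 0.207. Of the 28 pairs among the 8 genes, Klf2 and Klf15 had the profiles most alike, with a root mean square difference of 0.15 in centred log2 CPM over the 6 libraries.

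The window before the start of Klf15 is shown because the gene is a known output of the circadian clock, whose factors bind the E-box CACGTG, and clock genes varied between these libraries as described further on. It is taken from RefSeq on GRCm38.p6 (chr6:90462326-90462585, plus strand), with CACGTG in capitals.
Klf15: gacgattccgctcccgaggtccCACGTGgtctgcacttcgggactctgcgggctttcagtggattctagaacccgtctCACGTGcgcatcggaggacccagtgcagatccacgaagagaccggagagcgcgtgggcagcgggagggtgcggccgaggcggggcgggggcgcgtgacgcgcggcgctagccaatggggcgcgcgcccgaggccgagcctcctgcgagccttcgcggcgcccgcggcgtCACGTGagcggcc
The 3 E-boxes began 228, 172 and 3 bases before the start. At least 1 CACGTG occurred in 7.15% of the 32851 promoters and at least 3 in 29 of them (0.0883%). The cutoff of 3 is the number found in Klf15 itself, and no other cutoff above 1 was tallied. The windows of Klf4 and Klf6 held 1 each, 182 and 43 bases before the start, and those of Klf2, Klf9 and Klf13 held none. Klf9 and Klf10 are known clock outputs too, and Klf10 had no RefSeq promoter to search.

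Podocyte genes tied to KLF15, KLF4 or KLF6 included several that rose. Of 12, 4 rose, 1 fell and 7 did not pass (median 0.29). Npnt, a basement membrane ligand of integrins, went from 344.9, 302 and 349 CPM to 549.6, 541 and 501 CPM (log2 fold change 0.68, SE 0.087, adjusted p = 0.00355), with no overlap. The actin-associated Synpo rose by 0.44 (SE 0.087) and the slit diaphragm scaffold Magi2 by 0.63 (SE 0.13). The member that fell, named after its values were seen, was Cd2ap, an adaptor between the slit diaphragm and actin (-0.38, SE 0.093, adjusted p = 0.0438). The call of Npnt held without any 1 library. Without Cre_positive replicate 2 or 3 the count of rises was 2, since Synpo (adjusted p up to 0.0914) and Magi2 (up to 0.104) no longer passed; Magi2 also lost its call without Cre_negative replicate 2 or Cre_positive replicate 1. The call of Cd2ap ended without any library other than Cre_negative replicate 3 (up to 0.167) and, with all libraries, under robust=FALSE (0.0513). Nphs1, which encodes nephrin and is also a known KLF15-related gene, did not pass (log2 fold change 0.25, SE 0.097).

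Metabolic genes known as KLF15 targets mostly lay higher in Cre_positive libraries. Of 12, 11 were tested (Tat, a liver enzyme, had 12 counts in all), 5 rose, 1 fell and 5 did not pass, with a median of 0.63; with DESeq2 8 rose. The proline dehydrogenase Prodh went from 91.9, 111.5 and 126 CPM to 215, 202 and 211 CPM (log2 fold change 0.93, SE 0.11, adjusted p = 0.00217), and the hydroxyproline dehydrogenase Prodh2 from 83.1, 92.1 and 96.6 CPM to 193, 164 and 177 CPM (0.97, SE 0.087, adjusted p = 0.000637). Neither pair of groups overlapped. Slc2a4, the insulin-responsive glucose transporter GLUT4, rose by 0.80 (SE 0.091). Bcat2 and Dbt of branched-chain amino acid breakdown, named after their values were seen, rose as well, by 0.67 and 0.63. Gpt, the alanine aminotransferase, fell from 23.7 ± 2.99 to 10.5 ± 0.421 CPM (-1.18, SE 0.12, adjusted p = 0.00122), against the direction of the other 5. The call of Bcat2 ended when Cre_positive replicate 1 or 2 was left out (adjusted p at most 0.0726); those of the other 5 held without any 1 library. Several of these enzymes are abundant in proximal tubule, whose 10 markers had a median of 0.53 with 5 rises (2 without Cre_positive replicate 3) and no fall. Relative to the mean log2 CPM of those markers, Klf15 stood at -3.93, -3.60 and -3.35 in Cre_negative and at -3.39, -3.19 and -3.38 in Cre_positive libraries, which overlap. Relative to the 10 podocyte markers (3 rose, 1 without Cre_positive replicate 2 or 3, none fell, median 0.29) it stood at -0.13, 0.56 and 0.78 against 0.62, 0.89 and 0.68, which overlap too. No marker of either list was at 0, and the part of tissue makeup in these differences was not tested further.

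Klf6 (ENSMUSG00000000078, chromosome 13), a zinc finger factor that supports mitochondrial function in podocytes and is induced early after injury, had 60.1, 46.0 and 57.7 CPM without Cre and 49.1, 38.9 and 39.5 CPM with it. Cre_negative replicate 2 lay below Cre_positive replicate 1, so the genotypes overlapped. The log2 fold change was -0.36 (SE 0.13, 95% confidence interval -0.65 to -0.07) and the adjusted p 0.130. It did not pass with any 1 library left out or under any other setting run (adjusted p from 0.0535 to 0.344). Sco2, a cytochrome c oxidase assembly gene known as a KLF6 target, had a log2 fold change of 0.16 (SE 0.33) and did not pass.

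Klf10 (ENSMUSG00000037465, chromosome 15), also called TGF-beta-inducible early gene, encodes a repressor that TGF-beta induces within an hour and that acts on the SMAD pathway by repressing the inhibitor Smad7. It had 47.4, 44.6 and 41.3 CPM without Cre and 20.7, 29.2 and 22.6 CPM with it. The highest Cre_positive library lay well below the lowest Cre_negative one. The log2 fold change was -0.88 (SE 0.13, 95% confidence interval -1.18 to -0.58, adjusted p = 0.00658). The call held without any 1 library (adjusted p at most 0.0437, log2 fold change -1.04 to -0.78).

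Klf11, the close relative of Klf10 that is likewise induced by TGF-beta, fell in the same way. It had 34.4, 31.8 and 27.8 CPM without Cre and 15.98, 17.03 and 15.7 CPM with it, a 1.93-fold lower level (log2 fold change -0.95, SE 0.10, adjusted p = 0.00168) that held without any 1 library (at most 0.0159). Among 10623 named genes with a mean log2 CPM of at least 3, Klf11 was the third most like Klf10 by root mean square difference in centred log2 CPM over the 6 libraries (0.13), after the integrin subunit Itgb4 (0.11) and the stress-response factor Atf5 (0.12). The 3 genes most like Klf2 were Cyp2d26 (0.06), a cytochrome P450, Wscd2 (0.08) and the ammonium transporter Rhbg (0.09). No 50-base stretch of the annotated transcripts of Klf10 or Klf11 occurred in another gene, so their counts do not share reads of that kind.

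**Figure D3:**
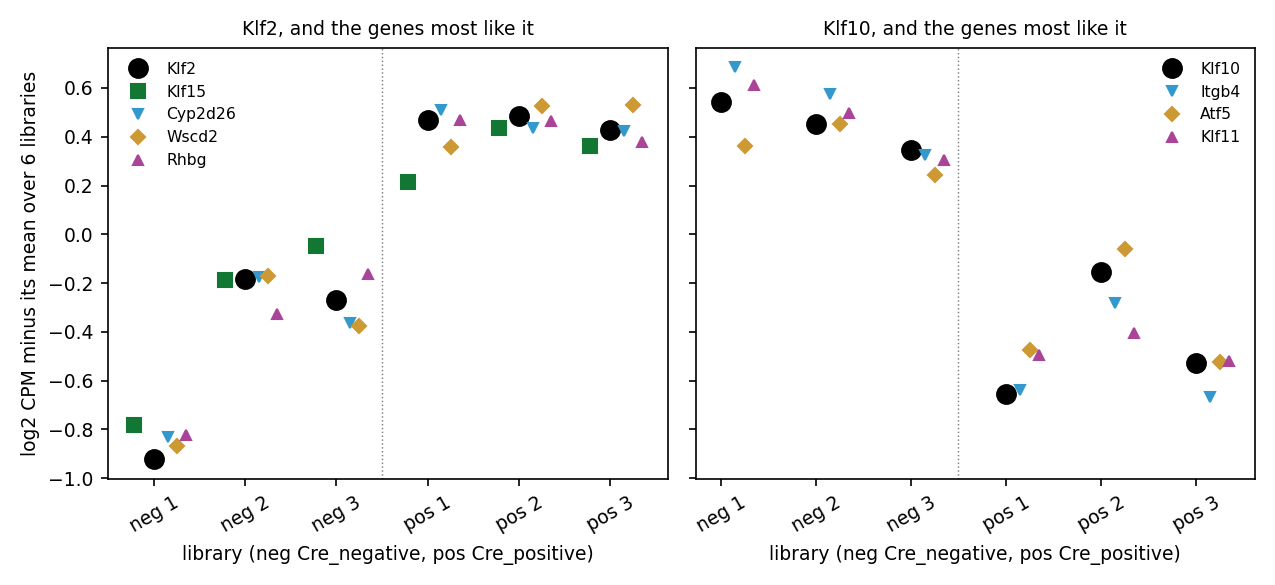
Centred log2 CPM (log2 CPM minus the gene's mean over 6 libraries, vertical axis) in each library for Klf2 with Klf15 and the 3 genes most like Klf2 (left), and for Klf10 with the 3 genes most like it (right). Klf2 and Klf15 are lowest in Cre_negative replicate 1, and Klf10 and Klf11 are high in all 3 Cre_negative libraries and low in all 3 Cre_positive ones.

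The window before the start of Klf11 is shown as that of the relative that fell with Klf10 (RefSeq, GRCm38.p6, chr12:24651121-24651380, plus strand), with CACGTG in capitals.
Klf11: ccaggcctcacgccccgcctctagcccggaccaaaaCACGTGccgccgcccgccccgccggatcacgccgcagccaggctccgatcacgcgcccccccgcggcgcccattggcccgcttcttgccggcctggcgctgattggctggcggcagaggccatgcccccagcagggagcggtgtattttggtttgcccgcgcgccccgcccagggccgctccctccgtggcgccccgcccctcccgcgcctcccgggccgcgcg
The E-box began 214 bases before the start. The SMAD box CAGACA, searched on both strands, was not among the letters of this window, and it occurred in 21.0% of all promoters. No other form of a SMAD site was searched, so the window may hold such sites.

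Other early targets of TGF-beta moved in both directions. Of 10, 1 rose, 2 fell and 7 did not pass, with a median of -0.0025 (0.20 without Cre_negative replicate 1). Skil, which encodes the SMAD repressor SnoN, rose from 28.7 ± 1.73 to 39.6 ± 2.26 CPM (log2 fold change 0.47, SE 0.084, adjusted p = 0.0142). Id1, an inhibitor of differentiation that is mainly a target of bone morphogenetic proteins, fell by 0.69 on the log2 scale (SE 0.13, adjusted p = 0.0158) and the SMAD corepressor Tgif1 fell by 0.67 (SE 0.16, adjusted p = 0.0439). Smad7 had 16.003, 23.8 and 34.5 CPM without Cre and 29.3, 35.8 and 37.7 CPM with it, which overlap. The call of Skil ended without Cre_positive replicate 3 (0.0779), that of Id1 without Cre_positive replicate 2 or 3 (up to 0.0792), and that of Tgif1 without Cre_negative replicate 1 or 2 or Cre_positive replicate 1 or 3 (up to 0.160) and with the replicate block (0.0737). Without Cre_positive replicate 3, none of the 10 passed.

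Klf2, Klf4, Klf6 and Klf10 are also counted among immediate-early genes, which are transcribed within minutes of a stimulus or of tissue handling. Of 17 such genes, none rose, 2 fell and 15 did not pass, with a median of -0.45, and 14 of 17 lay below 0; with DESeq2 7 fell. Btg2, an antiproliferative gene induced by p53, fell from 63.3 ± 12.0 to 32.2 ± 3.98 CPM (-0.97, SE 0.14, adjusted p = 0.00687) and kept its call without any 1 library. Socs3, the feedback inhibitor of cytokine receptors, fell from 12.2 ± 6.502 to 4.29 ± 0.821 CPM (-1.51, SE 0.36, adjusted p = 0.0481); its call ended without Cre_negative replicate 2 or any 1 Cre_positive library (up to 0.155), with no filter (0.0646) and with the replicate block (0.0970). The direction of most of these genes was that of Klf10 and not that of Klf2. Macrophage markers mostly lay lower with Cre, as Klf10, Btg2 and Socs3 did. Of 10, none rose and 2 fell (C1qc by 1.25 and Cd14 by 2.07 on the log2 scale), with a median of -0.90 and none at 0. The count was 6 with DESeq2, 5 without Cre_negative replicate 2, 3 without Cre_negative replicate 3 and 0 without any 1 Cre_positive library. Their summed level was 360, 191 and 289 CPM in Cre_negative replicates 1, 2 and 3 and 178 to 191 CPM with Cre. Cre_negative replicate 2 thus overlapped the Cre_positive libraries in these markers. In that library Klf10 (44.6 CPM), Btg2 (77.1 CPM) and Socs3 (9.20 CPM) lay above every Cre_positive level. The part of macrophage abundance or tissue handling in the values of Klf10 was not tested.

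Klf9 (ENSMUSG00000033863, chromosome 19), induced by glucocorticoids and thyroid hormone, was the most abundant of the 8 per length in Cre_negative libraries and differed little between genotypes. It had 128, 138 and 167 CPM without Cre and 142, 127 and 147 CPM with it, which overlap. A log2 difference of -0.05 (SE 0.11, interval -0.29 to 0.19) leaves room for 0.816 to 1.14 times the level without Cre. Of 15 receptors, enzymes and targets of glucocorticoids and mineralocorticoids, none rose, 3 fell and 12 did not pass (median 0.10, or -0.13 without Cre_negative replicate 1 and 0.03 without Cre_positive replicate 3). Fkbp5, which encodes a co-chaperone of the glucocorticoid receptor, had 57.5, 66.6 and 41.9 CPM without Cre and 22.3, 23.1 and 26.4 CPM with it (log2 fold change -1.21, SE 0.16, adjusted p = 0.00532). The metallothioneins Mt2 (-2.02, SE 0.12) and Mt1 (-0.82, SE 0.078), which also respond to metals, fell too, and all 3 calls held without any 1 library. Other glucocorticoid-induced genes did not pass: Tsc22d3 had 23.7, 59.3 and 50.9 CPM without Cre and 44.9, 49.4 and 59.8 CPM with it, and Sgk1 had 131, 326 and 273 CPM against 272, 226 and 326 CPM. Both were lowest in Cre_negative replicate 1, the library in which Klf2 and Klf15 were lowest as well.

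Klf9, Klf10 and Klf15 are known outputs of the circadian clock, and the labels do not give the time of day of collection. Of 16 clock genes, none rose, 2 fell and 14 did not pass (median -0.34); with DESeq2 7 fell, and without Cre_positive replicate 2 none passed. Bhlhe41, a clock repressor, fell from 4.55 ± 1.78 to 1.12 ± 0.323 CPM (-2.02, SE 0.37, adjusted p = 0.0149) and Nr1d2, which encodes the repressor REV-ERB beta, from 89.6 ± 17.5 to 52.0 ± 6.26 CPM (-0.79, SE 0.15, adjusted p = 0.0214). The call of Bhlhe41 ended when Cre_positive replicate 2 or 3 was left out (adjusted p at most 0.0715) and that of Nr1d2 without Cre_negative replicate 2 or Cre_positive replicate 1 or 2 (up to 0.0912) or with the replicate block (0.0599). Dbp, a clock output named here after its values were seen, had 47.3, 45.5 and 10.7 CPM without Cre and 4.54, 5.86 and 8.96 CPM with it. Bmal1, the activator that runs opposite to Dbp in time, had 12.3, 11.0 and 31.5 CPM without Cre and 37.0, 37.7 and 33.9 CPM with it. In both genes Cre_negative replicate 3 stood near the Cre_positive libraries and away from its companions. Without that library, 2 of the 16 clock genes passed upward and 9 downward. Without it, Klf10 had a log2 fold change of -0.93 (adjusted p = 0.00909), Klf2 of 0.97 (0.0305), Klf15 of 0.80 (0.0361) and Klf9 of 0.07 (0.699). That refit cannot tell collection time from genotype, since the Dbp and Bmal1 levels left then parted fully by genotype. In Cre_negative replicate 3, Klf10 was at 41.3 CPM, the lowest of the 3 levels without Cre and above the highest with it (29.2 CPM). The part of collection time in these differences was not tested.

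Klf5 (ENSMUSG00000005148, chromosome 14), which drives proliferation and is induced in injured tubule and vessel, was the scarcest of the 8. It had 2.82, 4.35 and 2.97 CPM without Cre and 2.89, 4.18 and 2.81 CPM with it, with replicate 2 highest in each genotype. Its difference of -0.04 on the log2 scale (SE 0.27, interval -0.64 to 0.57) leaves room for 0.642 to 1.48 times the level without Cre. Its sign turned without Cre_negative replicate 2 (0.18) and without Cre_positive replicate 1 (0.05) or 3 (0.07). Of 11 growth and epithelial genes known as KLF5 targets, 2 rose, 2 fell and 7 did not pass (median -0.68, or -0.41 without Cre_negative replicate 1). The simple-epithelium keratins Krt18 (-1.27, SE 0.22) and Krt8 (-0.68, SE 0.13) fell, while the integrin Itga6 (0.54, SE 0.12) and cyclin D1, Ccnd1 (0.52, SE 0.12), rose. These 4 calls ended when Cre_positive replicate 1 or 3 was left out (adjusted p at most 0.139), and all but that of Itga6 without Cre_negative replicate 2. Leaving out Cre_negative replicate 3 ended the call of Itga6, and leaving out Cre_positive replicate 2 ended those of Itga6 and Ccnd1; Ccnd1 also failed with the replicate block (0.0547). Of 10 tubular injury genes, 5 fell, none rose and none had a log2 fold change above 0 (median -1.66). With DESeq2 or robust=FALSE 8 fell. The summed level of the 10 was 12517, 6009 and 4253 CPM in Cre_negative replicates 1, 2 and 3. It was 2146 to 2414 CPM in Cre_positive libraries, and no gene had 0 counts. The highest sum was that of Cre_negative replicate 1, where Klf2 and Klf15 were lowest. The part of injury in those values was not tested. Of the 5 that fell in the main fit, none passed without Cre_positive replicate 1 or 3, and 1 without Cre_negative replicate 2. Krt8 and Krt18 were members of both lists, so the 2 falls among KLF5 targets were also among these 5. Klf5 overlapped fully between the genotypes beside the lower injury genes.

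Klf13 (ENSMUSG00000052040, chromosome 7), a broadly expressed repressor, had the narrowest interval of the 8. It had 42.8, 35.7 and 36.6 CPM without Cre and 36.8, 35.3 and 36.9 CPM with it. Its log2 difference of -0.08 (SE 0.090, interval -0.28 to 0.12) leaves room for 0.822 to 1.09 times the level without Cre, and without Cre_negative replicate 1, the highest library, it was 0.0079.

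Among the 9 other Kruppel-like factor genes, 7 were tested; besides Klf11, Klf12 rose and 5 did not pass. Klf12, a repressor with a binding motif for the corepressor CtBP, had 6.72, 3.85 and 5.81 CPM without Cre and 9.88, 10.04 and 10.7 CPM with it (log2 fold change 0.90, SE 0.21, adjusted p = 0.0351). Its groups did not overlap, but the call held only without Cre_negative replicate 1 (0.0236) and ended without any other library (up to 0.134). In the annotation 5.35% of its 50-base stretches occur in other genes, so its count is less certain than those of Klf10 and Klf11. Klf3, a repressor of the same CtBP-binding kind, stood at -0.22 (SE 0.077, adjusted p = 0.127) with no overlap. Klf7 (0.17), Klf16 (-0.18), Klf8 (-0.20) and Klf1, the red cell factor (0.22), did not pass. The value of Klf7 is uncertain, since 38.2% of its stretches are shared with a gene on the opposite strand. Klf14 had 2 counts in all and Klf17 had 0.

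**Figure D4:**
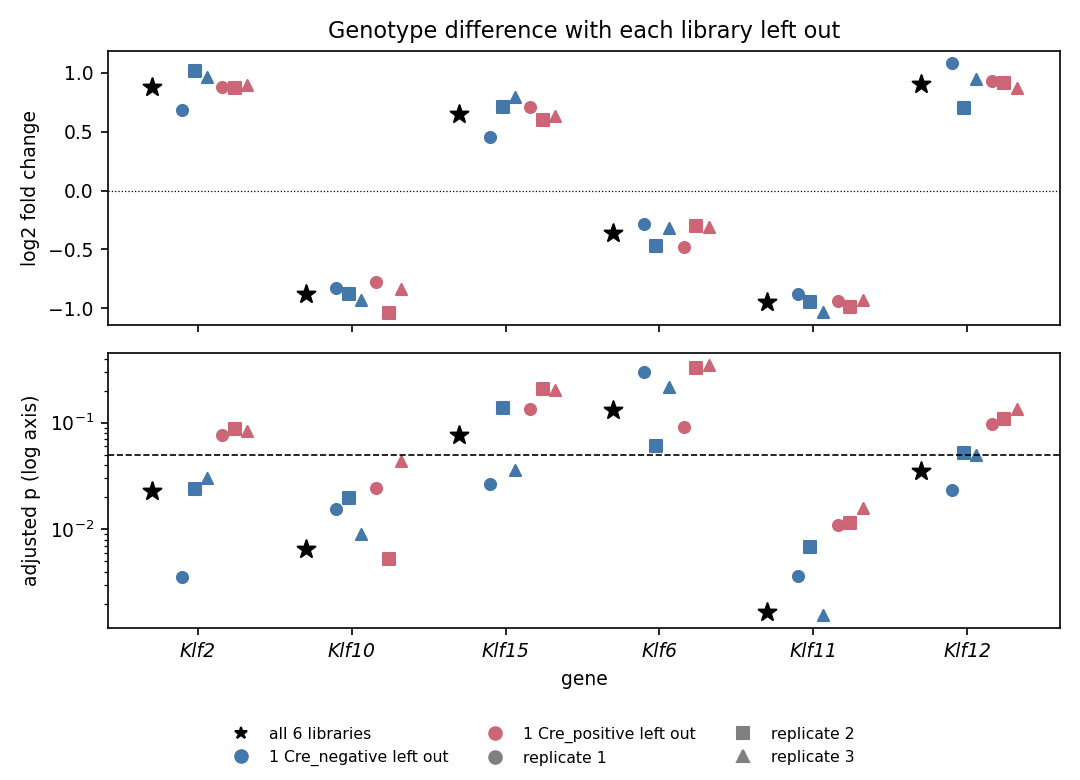
Log2 fold change (upper panel) and adjusted p on a log axis (lower panel, dashed line at 0.05) of 6 Kruppel-like factor genes with all 6 libraries (star) and with each library left out (blue for a Cre_negative library, red for a Cre_positive one, shapes for replicates 1 to 3). Klf10 and Klf11 stay under the line throughout, and Klf2 crosses it when any 1 Cre_positive library is left out.

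The sister family and the cofactors did not pass. Of 9 Sp factor genes, which bind the same GC boxes as Kruppel-like factors, 6 were tested and none passed; the smallest p was that of Sp5 (log2 fold change 0.40, SE 0.15, adjusted p = 0.157). Of 16 corepressors, coactivators and ubiquitin ligases that act with or on Kruppel-like factors, none passed, with a median of 0.0065; the smallest p was that of the ubiquitin ligase Smurf2 (0.25, SE 0.082, adjusted p = 0.109). No gene of either list passed with DESeq2.

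**Figure D5:**
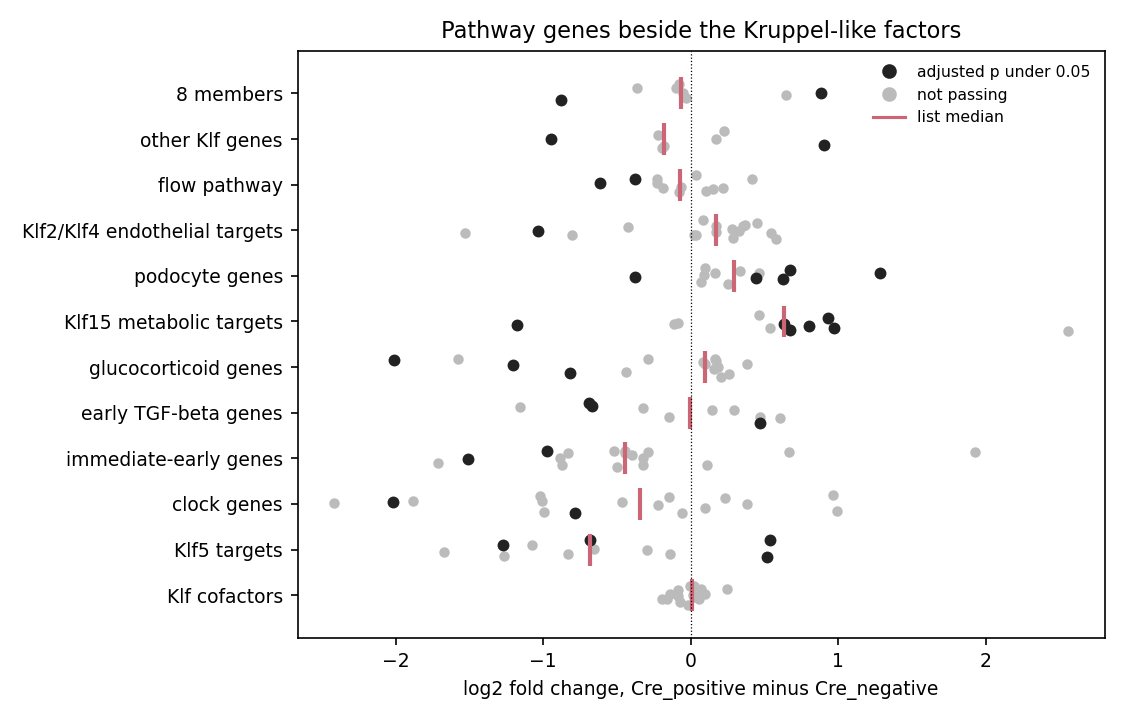
Log2 fold change (Cre_positive minus Cre_negative) of each tested gene in the 8 chosen genes and 11 lists of pathway genes, with black points for an adjusted p under 0.05, grey points for the rest and a red line at each list's median. The Klf15 metabolic targets have the highest median (0.63) and the Klf5 targets the lowest (-0.68) with all libraries, but without Cre_negative replicate 1 the immediate-early genes are lower (-0.63 against -0.41), while the cofactors lie around 0.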

How the data were processed

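The authors deposited whole-number counts per Ensembl gene in 1 table of 6 samples. Per the submitters' processing notes, GRCm39 was the build and HISAT2, StringTie, fastp and edgeR were used, with no version; nothing read here states the strand setting, the annotation release or how multiply matching reads were counted. Symbols matched 51880 of 57132 rows. Exon lengths came from GENCODE M21 on GRCm38, another build, so levels per kilobase are approximate. Promoters came from RefSeq on GRCm38.p6; 6 of the 8 members matched by symbol.

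Tests used edgeR 4.0.16 in R 4.3.3 (filterByExpr, TMM factors 0.979 to 1.03, quasi-likelihood test with robust=TRUE, Benjamini-Hochberg adjustment); SEs were derived from the F statistic. The common dispersion had a square root of 21.5%. Library pairs differed by more than sampling noise (chi-square per degree of freedom at least 20.6). The scripts were tested on simulated data with 1 dispersion for all genes, which real genes do not share. There, 6% of 50 genes changed 1.5-fold were called, and 68% of 50 changed 2-fold. All genes changed 4-fold or 8-fold were called, and 5 of 142 calls were false. A gene that did not pass may therefore still differ. DESeq2 1.42.0 and limma 3.58.1 gave alternatives.

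The members and the 22 gene lists were chosen with earlier results of these data known. All Klf genes were named; from each pathway list, up to 4 genes past the threshold by smallest p, or the smallest p where none passed; and the 3 genes most like each member past the threshold. Other genes were named after their values were seen. The values of a gene of the podocyte list are not reported here.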

Additional observations from a re-analysis of the deposited data

How the results depend on the processing

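The count of genes past the threshold was 1505 with all libraries, 2697 with DESeq2 and 414 at an adjusted p of 0.01. It ranged from 462 to 2039 with single libraries left out. The count of Kruppel-like factor members past the threshold was 2, was 1 (Klf10) at an adjusted p of 0.01, and ranged from 1 to 3 with single libraries left out. Klf10 passed under every setting run and with every library left out. Klf2 passed under every setting with all libraries at a threshold of 0.05, and its call ended without any 1 Cre_positive library. Size factors of DESeq2 or upper-quartile factors in edgeR, robust=FALSE, no filter and a minimum of 1 CPM (in 3 libraries) left the calls of the 8 genes where they were. All 8 kept the sign of their difference in all settings that used all libraries. With single libraries left out the signs of Klf4, Klf5, Klf9 and Klf13, none of them past the threshold, turned in at least 1 case. Mean CPM without normalization factors and log2 CPM with a prior count of 0.5 moved each of the 8 genes by less than 1 SD. The levels against marker lists and the list counts with libraries left out were chosen after seeing the data.

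With the replicate number as a block, 1541 genes and 3 members passed, Klf15 among them (log2 fold change 0.68, adjusted p = 0.0186). The same block ended the calls of Ccm2 (0.0640), Ccnd1 (0.0547), Nr1d2 (0.0599), Socs3 (0.0970) and Tgif1 (0.0737). The numbers share no stated animal or batch. Deviations of same-numbered libraries correlated at 0.055, 0.055 and 0.017 across genes. Every library correlated best with its own number, but Cre_negative replicate 3 nearly tied between Cre_positive replicate 3 (0.0173) and replicate 2 (0.0170). This is a hint from the data only.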
